A study of Mus musculus with 8 samples.

Results

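The comparison set liver tumors labelled Nfib knockout against wild-type liver tumors, by RNA sequencing. It took 5 of the 8 libraries of the series, 2 KO-labelled tumors (replicates 2 and 3) and 3 wild-type tumors (replicates 1, 2 and 3). Normal liver was not compared. All 21878 genes of the deposited count table were considered, and the 13754 with at least 10 counts in at least 2 of these 5 libraries were tested. The KO-labelled mice carried floxed Nfib alleles and Alb-Cre (Nfib f/f Alb-Cre, genotype nfib-/- in the labels), and the comparison mice were wild type without further detail. Both groups were C57BL/6, and the labels give an age of 14 to 16 days to tumor and normal liver alike, a value whose unit could not be checked and may be wrong for tumor-bearing liver. Alb-Cre is driven by the albumin promoter, which is active in hepatocytes, and cells of a tumor in which Cre did not act keep the gene. The labels do not state how the tumors arose, or that each library came from a separate animal, so the p-values measure only the spread between these samples, which may be technical. Throughout, values are listed for KO-labelled tumors in the order 2, 3 and for wild-type tumors in the order 1, 2, 3. They are CPM, the counts scaled to a common library size. The size of each library was adjusted by its TMM factor, which assumes that most genes do not differ between libraries.

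Nfib encodes nuclear factor I B, one of the NFI transcription factors, which bind DNA as dimers at a palindrome of TTGGC arms and act in the differentiation of many tissues. The liver clears ammonia through the urea cycle and glutamine synthesis, and hepatocytes break down most amino acids, with the enzymes of these pathways at high levels in differentiated cells. Liver tumors commonly lose part of this program and re-express fetal genes such as Afp and Igf2. The title of the series concerns liver tumors and the urea cycle.

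Total counts ran from 15721988 to 19965842 per library, and the correlation of log2(CPM + 0.5) between libraries ran from 0.861 to 0.972, lowest for pairs with wild-type tumor 2. Nfib, at chr4:82290173-82705750 of GRCm38, had 82.9 and 80.1 CPM in the KO-labelled tumors, against 63.3, 44.9 and 76.4 CPM in the wild-type tumors. The KO-labelled libraries thus held the 2 highest values. The log2 fold change was 0.41 ± 0.27 (SE), and Nfib did not pass the test. A gene-level count does not show which exons the reads came from, so it does not check the deletion, and the KO-labelled libraries are named by their labels only. Of the other family members, Nfix had 107 and 81.6 CPM in the KO-labelled tumors, against 79.2, 35.4 and 89.8 CPM in the wild-type tumors, and Nfia and Nfic overlapped between the groups as well.

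Libraries also differed in tissue content. Transcripts of skeletal muscle, such as Acta1 with 829 and 0.179 CPM in the KO-labelled tumors, against 30.7, 0.217 and 4.26 CPM in the wild-type tumors, summed to 3046 and 46 CPM in the KO-labelled tumors, against 221, 8.96 and 66.5 CPM in the wild-type tumors. Squamous epithelium transcripts summed to 596 and 6.07 CPM in the KO-labelled tumors, against 18.2, 18.7 and 7.75 CPM in the wild-type tumors, and 6 of 22 members of that list passed the filter. KO-labelled tumor 2 thus held both. KO-labelled tumor 3 held the most S100a8, a neutrophil gene, with 4.32 and 65.7 CPM in the KO-labelled tumors, against 6.86, 10.7 and 8.88 CPM in the wild-type tumors. The whole neutrophil list summed to 109 and 713 CPM in the KO-labelled tumors, against 726, 717 and 109 CPM in the wild-type tumors, and a large part of that sum was Lcn2, which hepatocytes also make, with 77.3 and 384 CPM in the KO-labelled tumors, against 679.9, 648 and 44 CPM in the wild-type tumors. The Y-linked gene Ddx3y gave 1 and 1 counts in the KO-labelled tumors, against 0, 106 and 1 counts in the wild-type tumors, so wild-type tumor 2 alone carried Y-linked transcripts at more than a trace. The hepatocyte marker Alb had 86135 and 82397 CPM in the KO-labelled tumors, against 120444, 152679 and 89012 CPM in the wild-type tumors. It was abundant in all 5 libraries, with both KO-labelled values below every wild-type value and wild-type tumor 2 highest.

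No gene passed the test. With edgeR's quasi-likelihood test and Benjamini-Hochberg adjustment, 0 of 13754 genes (0.0%) had an adjusted p under 0.05, and the smallest adjusted p was 0.946. At an unadjusted p under 0.05 there were 242 genes (1.76%), of which 122 (0.887%) were higher in the KO-labelled tumors and 120 (0.872%) were lower. Limma-voom called 0 genes, with 181 at an unadjusted p under 0.05, and DESeq2 called 5 (0.0364%), with 573 at an unadjusted p under 0.05. Both KO-labelled tumors lay above all 3 wild-type tumors for 1353 genes (9.84%), and below all 3 for 1040 genes (7.56%). The median log2 fold change over all tested genes was -0.01. The values below are therefore measured levels, and none of the genes or lists carries a call of edgeR.

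The genes that separated the groups most by edgeR p included a Notch target, a glucose transporter and a membrane mucin. Hes1, a transcriptional repressor at chr16:30064384-30067796 of GRCm38 and the standard target of Notch signalling, had 10.9 and 12.1 CPM in the KO-labelled tumors, against 31.6, 29.6 and 23.3 CPM in the wild-type tumors. The lowest wild-type value was above the higher KO-labelled one, and the log2 fold change of -1.29 ± 0.21 (SE) stayed between -1.40 and -1.20 when any single library was left out. DESeq2 gave Hes1 an adjusted p of 0.00875. Slc2a4, at chr11:69942539-69948188, encodes the insulin-regulated glucose transporter of muscle and fat and had 9.78 and 4.41 CPM in the KO-labelled tumors, against 0.704, 0.597 and 1.01 CPM in the wild-type tumors. Its log2 fold change was 3.20 ± 0.52 (SE), and DESeq2 gave it an adjusted p of 0.00203. The muscle list summed to 3046 CPM in KO-labelled tumor 2. In KO-labelled tumor 3 it summed to 46 CPM, below wild-type tumors 1 and 3 and above wild-type tumor 2. Without KO-labelled tumor 2 the log2 fold change of Slc2a4 was 2.50, and the part of muscle transcripts in its values was not tested.

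The other genes DESeq2 called were Acpp, Muc4 and Ugt2b37. Acpp, which encodes prostatic acid phosphatase, had 11.3 and 13.9 CPM in the KO-labelled tumors, against 3.28, 5.05 and 4.68 CPM in the wild-type tumors, with a DESeq2 adjusted p of 0.0383. Muc4, a membrane mucin of epithelia, had 0.216 and 0.0595 CPM in the KO-labelled tumors, against 1.41, 3.8 and 5.03 CPM in the wild-type tumors, with an adjusted p of 0.0191 by DESeq2. Ugt2b37, a glucuronosyltransferase of a family of near-identical genes whose reads the counting could have divided among them, had 1.62 and 2.02 CPM in the KO-labelled tumors, against 6.16, 5.32 and 5.5 CPM in the wild-type tumors, with the same DESeq2 adjusted p. None of these 5 genes overlapped between the groups, and none reached an adjusted p under 0.05 by edgeR or limma-voom. DESeq2 called them from these same libraries, so the lack of overlap adds no further support. Muc4 had 4 and 1 counts in the KO-labelled tumors, against 24, 70 and 85 in the wild-type tumors. It thus passed the filter only through the wild-type tumors.

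The plot of the leading genes is drawn from the 12 with the smallest edgeR p in each direction among genes without overlap. Among those that were higher in the KO-labelled tumors, Aqp8, a water channel, had 180.2 and 128 CPM in the KO-labelled tumors, against 81.5, 44.9 and 72.2 CPM in the wild-type tumors. The lower KO-labelled value was above the highest wild-type value. Dapl1 and Cap2 were highest in KO-labelled tumor 2, with Dapl1 at 4.76 and 0.715 CPM in the KO-labelled tumors, against 0.0587, 0.0543 and 0 CPM in the wild-type tumors. Dapl1 belongs to the squamous list, and its counts were 88 and 12 in the KO-labelled tumors, against 1, 1 and 0 in the wild-type tumors. It passed the filter only through the KO-labelled tumors, so its lack of overlap was set by the filter. In KO-labelled tumor 3 the squamous list summed to 6.07 CPM. The part of squamous and muscle transcripts in the Dapl1 and Cap2 values was not tested, and without KO-labelled tumor 2 the log2 fold change of Cap2 was 1.96. On the lower side, the surface proteins Cd24a and Cd44 had 14.2 and 12.3 CPM in the KO-labelled tumors, against 23.9, 29.4 and 22.6 CPM in the wild-type tumors for Cd24a and 16.2 and 15.9 CPM in the KO-labelled tumors, against 28.6, 23.2 and 27.2 CPM in the wild-type tumors for Cd44. Hbegf, a ligand of the EGF receptor, had 2.87 and 2.02 CPM in the KO-labelled tumors, against 7.98, 14.8 and 5.45 CPM in the wild-type tumors. Angptl8, a secreted regulator of lipoprotein lipase, had 28.9 and 45.4 CPM in the KO-labelled tumors, against 106, 105 and 70.4 CPM in the wild-type tumors. For each of these 4 genes the KO-labelled values were both below the lowest wild-type value.

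**Figure D1:**
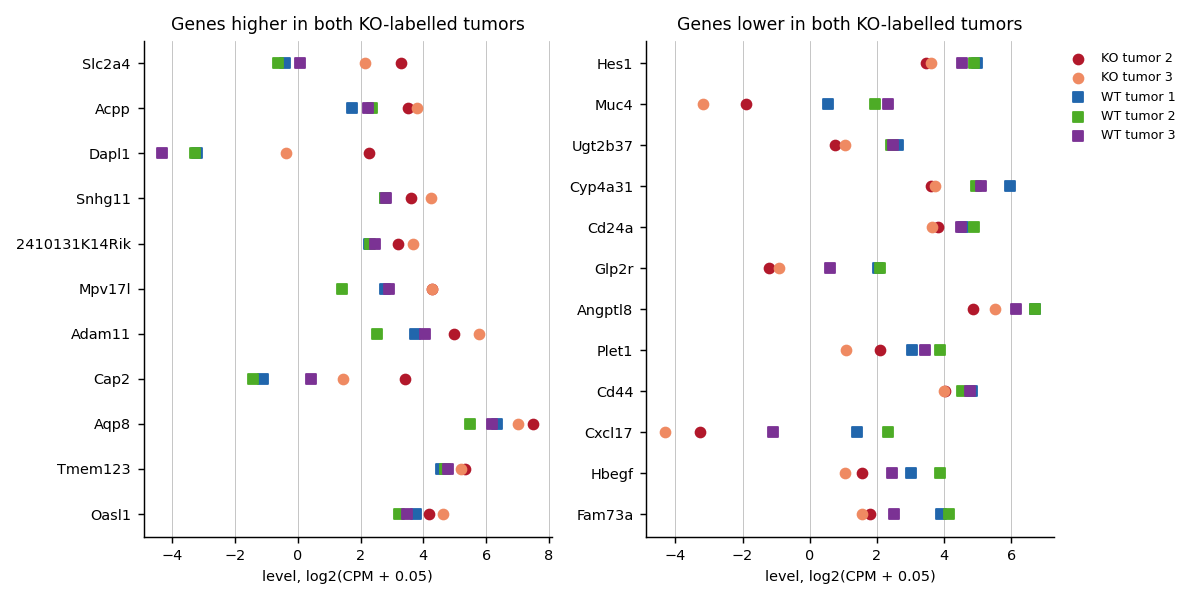
Level of leading genes as log2(CPM + 0.05) on the x axis, with 1 point per library (circles: KO-labelled tumors, squares: wild-type tumors). The genes were chosen as not overlapping, and the 2 KO-labelled points lie to the same side of the 3 wild-type points for every gene shown, with log2 fold changes of 0.58 for Tmem123 and 3.20 for Slc2a4.

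Amino acid metabolism genes were largely separated between the groups. The 6 lists of these genes were chosen with earlier results of these data known, and combining them was not planned. Of 95 tested members of the 6 lists combined, 82 had a fitted log2 fold change above 0, against 49.3% of all tested genes. Both KO-labelled tumors were above all 3 wild-type tumors for 55 of them (57.9%), against 9.84% of all tested genes, and below for 2. The median log2 fold change was 0.61. The summed level was 48527 and 60230 CPM in the KO-labelled tumors, against 30390, 17458 and 40476 CPM in the wild-type tumors. In bulk tumors, fewer hepatocytes and less RNA per hepatocyte cannot be told apart. Alb, unlike this sum, was highest in wild-type tumor 2, and the hepatocyte share of each tumor was not tested. Without wild-type tumor 2, which had the lowest sum, 59 members were above without overlap (background 15.5%), 3 were below (background 11.6%) and the median was 0.41. In no list did edgeR call a member.

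The urea cycle had 9 tested genes, of which 8 had a fold change above 0. Of these 9 genes, 6 were above without overlap (66.7%) and 0 below, against 9.84% and 7.56% of all tested genes. Cps1, at chr1:67123026-67231259 of GRCm38, encodes the enzyme that makes carbamoyl phosphate from ammonia in the first step of the cycle and had 3685 and 5532 CPM in the KO-labelled tumors, against 1696, 1789 and 2452 CPM in the wild-type tumors. Its log2 fold change was 1.22 ± 0.39 (SE) with an unadjusted edgeR p of 0.024. Ass1, which joins citrulline and aspartate, had 3372 and 3667 CPM in the KO-labelled tumors, against 1194, 330.2 and 2350.4 CPM in the wild-type tumors. Asl, which releases arginine, had 528 and 1011 CPM in the KO-labelled tumors, against 318, 97.1 and 498 CPM in the wild-type tumors. Both enzymes were lowest in wild-type tumor 2, and for Asl the values of KO-labelled tumor 2 and wild-type tumor 3 lay close together. Arg1, which cleaves arginine to urea and ornithine, had 1645 and 1960.3 CPM in the KO-labelled tumors, against 920.2, 173 and 1451 CPM in the wild-type tumors, and the ornithine carrier Slc25a15 had 269.6 and 479 CPM in the KO-labelled tumors, against 159.7, 68.7 and 243 CPM in the wild-type tumors. Otc, which makes citrulline, had 536 and 493 CPM in the KO-labelled tumors, against 263, 187 and 512 CPM in the wild-type tumors and overlapped. Nags, which makes the activator of Cps1, had 54.4 and 63.8 CPM in the KO-labelled tumors, against 43.7, 48.3 and 51.1 CPM in the wild-type tumors. The median of the list was 1.09, and 0.60 without wild-type tumor 2 or 0.78 without KO-labelled tumor 3.

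Glutamine and ammonia genes followed, with 8 of 19 above without overlap (42.1%), against 9.84% of all tested genes. Their median was 0.66, or 0.35 without wild-type tumor 2. Gls2, the liver glutaminase, had 519 and 537 CPM in the KO-labelled tumors, against 196, 148 and 358 CPM in the wild-type tumors. Got1, the cytosolic aspartate aminotransferase, had 354 and 924 CPM in the KO-labelled tumors, against 179, 54.7 and 269 CPM in the wild-type tumors, and Aldh4a1, which completes proline breakdown, had 485 and 488 CPM in the KO-labelled tumors, against 296, 223 and 333 CPM in the wild-type tumors. Gls2 and Aldh4a1 were nearly equal in the 2 KO-labelled tumors, whereas Got1 was far higher in KO-labelled tumor 3, and its log2 fold change of 1.93 ± 0.76 (SE) was 1.08 without that library. Methionine and sulfur genes had 10 of 14 above without overlap (71.4%) and a median of 0.73, or 0.47 without wild-type tumor 2. Cth, which makes cysteine from cystathionine, had 379 and 428 CPM in the KO-labelled tumors, against 157, 166 and 289.7 CPM in the wild-type tumors, and Mat1a, the liver enzyme that makes S-adenosylmethionine, had 3151 and 5617 CPM in the KO-labelled tumors, against 1762, 649.5 and 2644 CPM in the wild-type tumors. Csad, an enzyme of taurine synthesis, was below without overlap, with 89.7 and 95.3 CPM in the KO-labelled tumors, against 119, 416 and 164 CPM in the wild-type tumors.

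Branched-chain and lysine genes had 18 of 18 fold changes above 0, with a median of 0.56. They had 14 above without overlap (77.8%), against 9.84% of all tested genes. Aromatic and tryptophan genes had 12 of 16 above without overlap (75.0%) and a median of 0.94, or 0.53 without wild-type tumor 2. Mccc1, a subunit of the leucine pathway enzyme methylcrotonoyl-CoA carboxylase, had 57.4 and 59.5 CPM in the KO-labelled tumors, against 38.8, 33.7 and 42.3 CPM in the wild-type tumors, and Ido2, an enzyme of tryptophan breakdown, had 59.4 and 67.3 CPM in the KO-labelled tumors, against 34.5, 25.6 and 47 CPM in the wild-type tumors. With any single library left out, the log2 fold change of Mccc1 was between 0.53 and 0.70 and that of Ido2 between 0.64 and 1.08. The list of serine, glycine and histidine genes, with 5 of 19 above without overlap (26.3%) and a median of 0.39, held enzymes of both breakdown and synthesis. Hal, the first enzyme of histidine breakdown, had 463 and 397 CPM in the KO-labelled tumors, against 140.2, 43.2 and 272 CPM in the wild-type tumors. Phgdh, the first enzyme of serine synthesis, had 4.05 and 2.74 CPM in the KO-labelled tumors, against 32.6, 42 and 1.6 CPM in the wild-type tumors, and Psat1, the next enzyme, had 4.22 and 7.32 CPM in the KO-labelled tumors, against 58.7, 172 and 2.13 CPM in the wild-type tumors. Asns, which makes asparagine, had 2.54 and 5.3 CPM in the KO-labelled tumors, against 32.7, 67.1 and 1.42 CPM in the wild-type tumors. These synthesis enzymes were high in wild-type tumors 1 and 2 and low in wild-type tumor 3, so the groups overlapped.

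**Figure D2:**
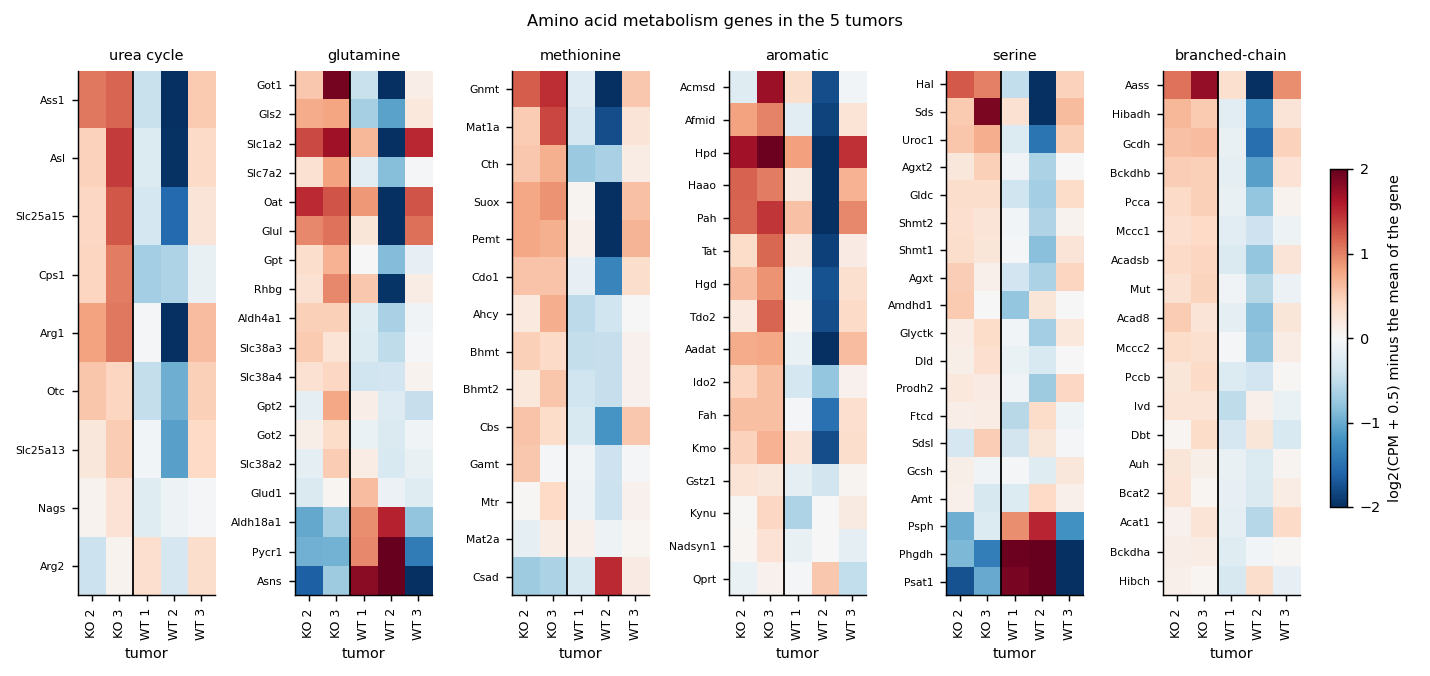
Levels of tested members of the 6 amino acid lists in the 5 tumors, as log2(CPM + 0.5) minus the mean of the gene (colour, full at 2 and -2), ordered by log2 fold change; KO-labelled tumors are the left 2 columns of each panel. Both left columns are above the 3 right ones in 55 members, and wild-type tumor 2 is the bluest column in panels such as the aromatic one.

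Promoters were searched for the DNA motifs of NFI factors, since Nfib is the gene the labels give as deleted. RefSeq promoters (GRCm38.p6, 250 bases before to 50 after the start) were found with a single start for 8390 of the tested genes, and 35 of the 55 amino acid members above without overlap. Genes with several listed starts and those of a single chromosome were left out, and no promoter of Hes1, Cps1 or Slc2a4 was available. The palindrome, TTGGC followed after any 5 bases by GCCAA, and the extended arm TTGGCA were searched on both strands, and the extended arm lies within a palindrome only where the adjoining base fits. The palindrome was in 7 of the 22862 promoters searched (0.0306%) and in 0 of the 35. At so low a share, 35 promoters are too few for this 0 to carry information. The extended arm was in 14.5% of the promoters searched and in 11.7% of those of tested genes. It was in 13.4% of those of genes above without overlap and in 11.3% of those below. Of the 35 promoters it was in 2 (5.71%), Got1 and Bhmt. Among the leading genes the interferon-induced gene Oasl1 held the palindrome. These 3 promoters are shown because they hold the searched letters, with the motif in capitals, and a match describes letters and not a bound site.
Oasl1 promoter, chr5:114922990-114923289, plus strand: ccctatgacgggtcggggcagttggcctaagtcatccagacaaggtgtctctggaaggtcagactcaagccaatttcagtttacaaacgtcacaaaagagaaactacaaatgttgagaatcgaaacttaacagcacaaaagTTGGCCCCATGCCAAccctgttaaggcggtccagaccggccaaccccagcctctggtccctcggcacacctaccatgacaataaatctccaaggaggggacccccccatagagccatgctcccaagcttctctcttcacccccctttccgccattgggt
Got1 promoter, chr19:43524556-43524855, minus strand: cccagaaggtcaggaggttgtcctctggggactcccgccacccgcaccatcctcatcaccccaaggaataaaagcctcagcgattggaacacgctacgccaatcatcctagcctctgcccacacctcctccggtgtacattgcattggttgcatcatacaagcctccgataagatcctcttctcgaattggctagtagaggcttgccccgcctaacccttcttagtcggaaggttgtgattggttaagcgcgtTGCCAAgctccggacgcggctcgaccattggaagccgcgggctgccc
Bhmt promoter, chr13:93637709-93638008, minus strand: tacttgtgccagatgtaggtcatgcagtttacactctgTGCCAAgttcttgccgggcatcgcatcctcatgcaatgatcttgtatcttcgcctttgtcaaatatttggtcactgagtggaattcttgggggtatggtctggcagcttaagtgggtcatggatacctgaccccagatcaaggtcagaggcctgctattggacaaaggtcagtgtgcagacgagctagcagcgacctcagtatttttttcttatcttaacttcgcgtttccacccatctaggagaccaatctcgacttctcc

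Other liver functions divided. Over all tested genes, 9.84% were above without overlap and 7.56% below. Gluconeogenesis and glycogen genes had 6 of 16 above without overlap and 2 below, with a median of 0.53 that was 0.22 without wild-type tumor 2 and 0.33 without KO-labelled tumor 3. Bile acid genes had 5 of 19 above, with a median of 0.36. Leaving out wild-type tumor 2 made it 0.18, and leaving out wild-type tumor 3 made it 0.71. Xenobiotic enzymes had 6 of 28 above and 1 below, with a median of 0.26, or 0.43 without wild-type tumor 3. Cyp7a1, the rate-limiting enzyme of bile acid synthesis, had 207 and 116 CPM in the KO-labelled tumors, against 46.7, 96.7 and 95.8 CPM in the wild-type tumors. Pygl, liver glycogen phosphorylase, had 405 and 462 CPM in the KO-labelled tumors, against 286, 183 and 305 CPM in the wild-type tumors. Pck2 and Pgm1 were on the lower side, with Pck2, mitochondrial phosphoenolpyruvate carboxykinase, at 7.08 and 7.09 CPM in the KO-labelled tumors, against 28.7, 20 and 8.17 CPM in the wild-type tumors. Fatty acid oxidation had 1 of 26 above and 1 below, with a median of 0.01. That median was -0.28 when wild-type tumor 2 was left out and 0.37 when wild-type tumor 3 was. The 16 tested hepatocyte transcription factors had 2 above and a median of 0.09, between -0.06 without KO-labelled tumor 3 and 0.20 without KO-labelled tumor 2. Fgf21, a hormone induced by fasting and by stress, had 3.51 and 3.45 CPM in the KO-labelled tumors, against 24.8, 6.19 and 14.1 CPM in the wild-type tumors. Pericentral genes, which include targets of beta-catenin, had 1 of 20 above, and their median of 0.44 became 0.92 when wild-type tumor 1 was left out, 0.86 for wild-type tumor 3 and -0.01 for wild-type tumor 2. They summed to 9784 and 9209 CPM in the KO-labelled tumors, against 7809, 303 and 8995 CPM in the wild-type tumors.

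Cholesterol synthesis and the Notch pathway had more members below than above. Cholesterol genes had 6 of 25 below without overlap and 0 above, against 7.56% and 9.84% of all tested genes, and a median of -0.44. Without wild-type tumor 1 the median was -0.25 and 3 members were above without overlap (background 13.2%), and without KO-labelled tumor 3 there were 4 above (background 23.3%). Without wild-type tumor 3, 17 were below (background 24.7%), and without KO-labelled tumor 2, 12 were below (background 20.8%). Sqle, squalene epoxidase, had 65.4 and 71.2 CPM in the KO-labelled tumors, against 194, 200.1 and 73.2 CPM in the wild-type tumors, and Cyp51, which removes a methyl group from lanosterol, had 134 and 101 CPM in the KO-labelled tumors, against 308, 209 and 156 CPM in the wild-type tumors. Sqle in wild-type tumor 3 lay close to the higher KO-labelled value. The Notch list had 8 of 29 below without overlap and 2 above, with a median of -0.19, or -0.37 without KO-labelled tumor 2. Besides Hes1, the receptor Notch1 had 39.3 and 47.1 CPM in the KO-labelled tumors, against 54.5, 56.4 and 50.9 CPM in the wild-type tumors, and the ligand Dll4 had 5.95 and 4.88 CPM in the KO-labelled tumors, against 9.62, 8.96 and 6.75 CPM in the wild-type tumors. Notch4 was below in both KO-labelled tumors, and Hey1 and Nrarp, other Notch targets, overlapped. Rbpj, the DNA-binding factor of the pathway, had 19.1 and 15.8 CPM in the KO-labelled tumors, against 14.8, 18.7 and 11.5 CPM in the wild-type tumors and overlapped.

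Genes of MAPK feedback, which ERK signalling induces, had 3 of 18 members (16.7%) below without overlap and 0 above. Over all tested genes the shares were 7.56% and 9.84%, and the median of the list was -0.30. Without wild-type tumor 1, in which the list had its highest sum, the median was -0.07. In that setting 3 members were above without overlap (background 13.2%) and 4 below (background 12.1%). Without wild-type tumor 3 the median was -0.45. Etv4, an ETS factor, had 0.595 and 0.298 CPM in the KO-labelled tumors, against 2.76, 2.01 and 0.947 CPM in the wild-type tumors, and Ccnd1, cyclin D1, had 99.7 and 50.6 CPM in the KO-labelled tumors, against 187, 142 and 119 CPM in the wild-type tumors. Both KO-labelled values were below all wild-type values for both genes. Of 915 tested genes that the deposited annotation lists as transcription factors, 97 (10.6%) were above and 61 below without overlap, near the shares of all genes. Elf3, an epithelial ETS factor chosen after its values were seen, had 1.19 and 1.55 CPM in the KO-labelled tumors, against 4.11, 26.7 and 9.53 CPM in the wild-type tumors, and Id1, an inhibitor of basic helix-loop-helix factors chosen likewise, had 13 and 13.6 CPM in the KO-labelled tumors, against 21.2, 23.7 and 18.6 CPM in the wild-type tumors.

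Fetal, mitotic and stress genes had negative medians, but most members overlapped between the groups. Over all tested genes, 7.56% were below without overlap and 9.84% above. The oncofetal list had 23 of 26 fold changes below 0, against 50.7% of all tested genes, and a median of -1.18 that was -0.58 without wild-type tumor 2, but 3 members were below without overlap. Afp, alpha-fetoprotein, had 15.6 and 16.9 CPM in the KO-labelled tumors, against 561, 2289 and 4.32 CPM in the wild-type tumors, and Igf2, a fetal growth factor, had 5.73 and 185 CPM in the KO-labelled tumors, against 13.5, 5619 and 3.67 CPM in the wild-type tumors. Afp was thus lower in wild-type tumor 3 than in either KO-labelled tumor, and without wild-type tumor 2 the log2 fold change of Igf2 was 3.47 in place of -4.30. Mitosis genes had a median of -0.87, or -0.56 without wild-type tumor 2, with 2 of 28 below without overlap, and the unfolded protein and stress list a median of -0.51, or -0.77 without wild-type tumor 3, with 3 of 25 below and 1 above without overlap. Ddit3, which encodes the stress factor CHOP, had 16.1 and 14.5 CPM in the KO-labelled tumors, against 17, 317 and 22.3 CPM in the wild-type tumors, and Atf5, a stress-induced factor, had 394 and 342 CPM in the KO-labelled tumors, against 604, 887 and 678 CPM in the wild-type tumors. Without wild-type tumor 3, members below without overlap were 16 of 26 in the oncofetal list, 21 of 28 in mitosis, 19 of 25 in stress and 32 of 36 among ribosomal proteins, where all tested genes had 24.7%. Wild-type tumor 3 was thus low in these lists, as the KO-labelled tumors were. With all libraries the ribosomal list had 7 of 36 members below without overlap (19.4%) and 0 above. Its median was -0.30 with all libraries and -0.07 without wild-type tumor 2.

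**Figure D3:**
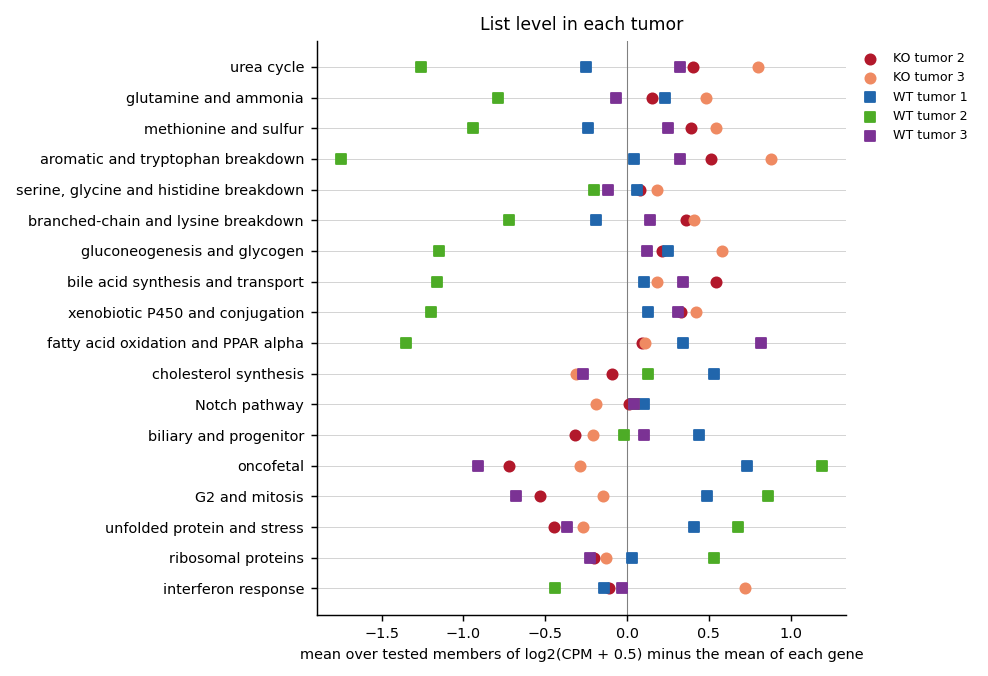
Mean level of the tested members of each list in each tumor, as log2(CPM + 0.5) minus the mean of the gene, with circles for KO-labelled and squares for wild-type tumors. The amino acid lists have wild-type tumor 2 at the left, and the oncofetal, mitosis and stress lists have wild-type tumor 3 beside the KO-labelled tumors.

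Interferon-induced genes were above in both KO-labelled tumors for 7 of 30 members (23.3%) and below for 0, with a median of 0.56. Over all tested genes, 9.84% were above without overlap and 7.56% below. Oasl1 had 17.9 and 24.4 CPM in the KO-labelled tumors, against 13.5, 9.23 and 11.1 CPM in the wild-type tumors, and Rsad2, the antiviral enzyme viperin, had 12.8 and 35.8 CPM in the KO-labelled tumors, against 8.39, 6.51 and 10.2 CPM in the wild-type tumors. The level was highest in KO-labelled tumor 3, which also held the most S100a8, and the part of its immune cells in the interferon values was not tested. Without that library the median was 0.05, and 8 members were above (background 23.3%) and 6 below (background 19.1%) without overlap. Without KO-labelled tumor 2 the median was 0.89. Neutrophil genes themselves had 1 of 14 above (7.14%) and 0 below, and their median of 1.67 was -1.25 without KO-labelled tumor 3. The stellate cell list had 0 of 24 members above and 0 below. The endothelial list had 0 of 22 above and 1 below (4.55%), and Kupffer cell genes 1 of 20 above and 1 below (5.0% each). Krt19, a biliary keratin, had 5.84 and 3.33 CPM in the KO-labelled tumors, against 9.09, 1.74 and 18.1 CPM in the wild-type tumors. The biliary list had 4 of 24 members below (16.7%), 1 above (4.17%) and a median of -0.63.

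**Figure D4:**
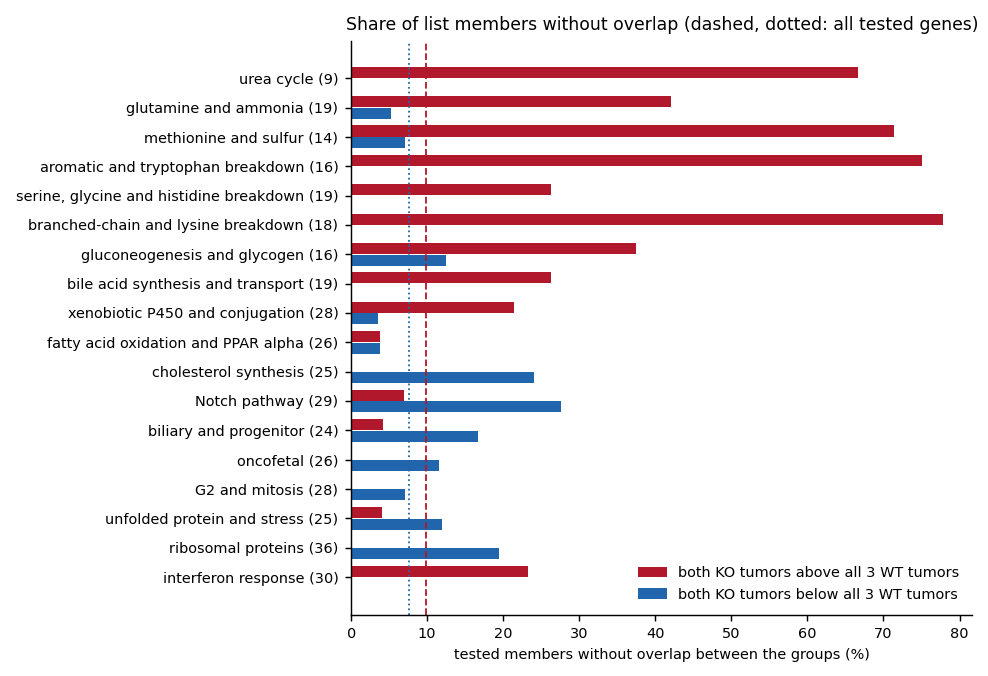
Share of the tested members of each list (number in brackets) with both KO-labelled tumors above (red) or below (blue) all 3 wild-type tumors, in percent. The dashed and dotted lines mark 9.84% and 7.56%, the shares over all tested genes; the branched-chain list reaches 77.8% and the urea cycle 66.7%.

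**Figure D5:**
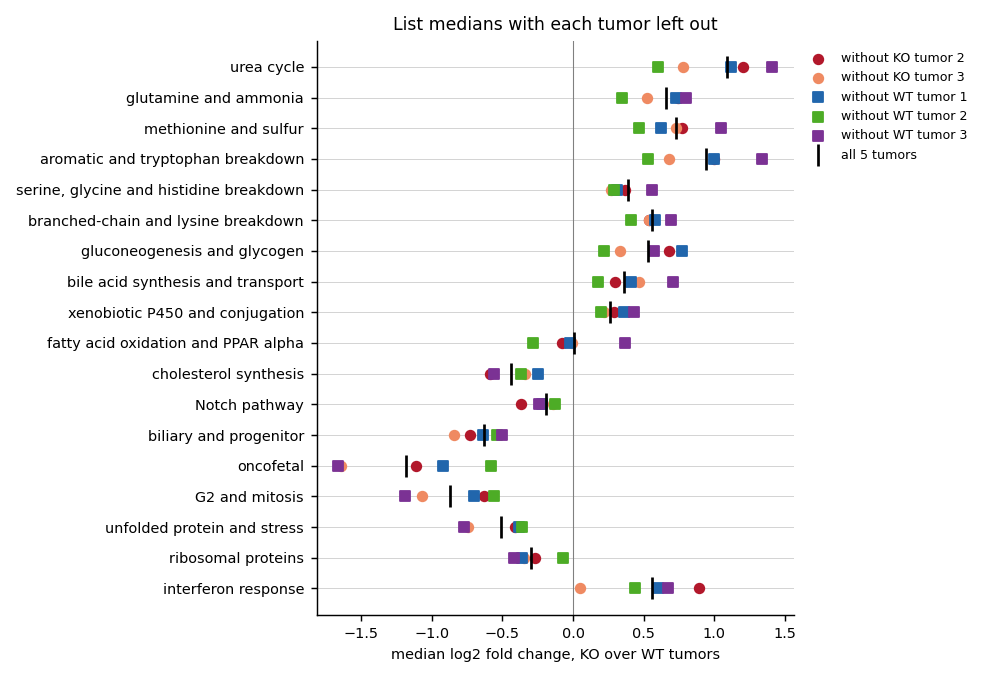
Median log2 fold change of each list, KO-labelled over wild-type tumors, with all 5 libraries (bars) and with each left out (points). The amino acid medians stay above 0 in all 5 settings, with the urea cycle between 0.60 and 1.41, while the interferon median is 0.05 without KO-labelled tumor 3.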

How the data were processed

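RNA of 5 liver tumors was compared. Per the labels' protocols, total RNA was extracted with the mirVana kit, had an integrity number of at least 7 and went into stranded TruSeq mRNA libraries. Per the submitters' processing notes, Bowtie 0.12.2 and the builds mm8 and mm9 were used, with no role given, and the counting method is not given in the sources used here. The authors deposited raw counts per gene and, for the alternatives, FPKM values. 16 columns of values per library in 4 deposited comparison tables were not used, and 2 of these belong to a library that is no sample here.

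Counts were tested with edgeR 4.0.16 (R 4.3.3; TMM, robust quasi-likelihood fit, knockout and wild-type tumors only) at an adjusted p of 0.05 (Benjamini-Hochberg), over genes with at least 10 counts in at least 2 libraries. The common biological coefficient of variation was 0.436. The standard error of a fold change is its size divided by the square root of the F statistic. CPM values use TMM-scaled library sizes, and intervals are not given. The 45 gene lists and the members were chosen with earlier results of these data known. The combination of the 6 amino acid lists and the list of annotated transcription factors were added to these and were not planned. Lists are described by counts and medians, without a list test. The genes named are the NFI family, the 12 per direction with the smallest p, at least 1 CPM and no overlap, up to 3 such members per list, and all urea cycle genes and defining markers. Other list members named beside them were chosen after their values were seen. Some genes that the rule or the lists hold are counted but not reported here by name. The planned check against the deposited table named for wild-type tumor 1 and knockout tumor 2 was not run, because its headers hold 0 knockout tumor columns. The deviations of same-numbered tumors from their group means had correlations of -0.091 and -0.079. With 2 KO-labelled tumors their deviations mirror each other, so these values cannot exclude a shared batch or animal. Replicate numbers are not said to mark a shared animal, and they were not used as pairs. Alternatives were DESeq2 1.42.0, limma 3.58.1 on voom values and on log2(FPKM + 1) or log2(FPKM + 0.1), other size factors, other filters, all 8 libraries, a replicate block, and each library left out. The fits were also run on simulated data, and no statement here draws on that run. Promoter sequences are from RefSeq (GRCm38.p6) and gene positions from GENCODE (GRCm38), neither converted from the builds above.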

Additional observations from a re-analysis of the deposited data

How the results depend on the processing

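The groups held 2 and 3 libraries, which limits the precision of every fold change. No gene was called by edgeR with other size factors or filters, all 8 libraries or a library left out, by limma on voom values or by limma on FPKM. DESeq2 called 5 genes and had 573 at an unadjusted p under 0.05, against 242 with edgeR. Leaving out single libraries gave 113 to 1257 genes at an unadjusted p under 0.05, the highest without wild-type tumor 3 and the lowest without wild-type tumor 1. Genes without overlap numbered 1812 to 3330 above and 1594 to 3392 below, where fewer libraries compared make overlap rarer.

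The replicate numbers were not used as pairs in the main fit. With the replicate block, 0 genes were called, 152 had an unadjusted p under 0.05, and Nfib had a log2 fold change of 0.48. With that block the biliary median was -0.19, the pancreas median -1.15 and the female-biased median 1.28, and Gpc3 was 1.91.

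The list medians with a library left out ranged from 0.27 to 0.56 for serine, 0.09 to 0.32 for glycolysis, -0.23 to 0.06 for plasma proteins, -0.34 to 1.0 for acute phase, -0.37 to -0.13 for Notch, -0.55 to 0.23 for immediate early genes and 0.05 to 0.89 for interferon. They ranged from -0.07 to 0.18 for antigen presentation, -1.25 to 2.50 for neutrophil, 0.00 to 0.87 for lymphocyte, -1.09 to 0.34 for stellate, -0.84 to -0.50 for biliary and -0.85 to 0.11 for erythroid genes. They ranged from -4.47 to 5.82 for muscle, -0.86 to 3.97 for squamous, -2.15 to -0.62 for pancreas, -0.29 to 1.98 for adipose genes and 0.00 to 0.11 for transcription factors. On log2(FPKM + 1) the medians were -0.08 for Notch, -0.37 for biliary, 1.16 for squamous and -0.68 for pancreas, and on log2(FPKM + 0.1) they were -0.40 for biliary and -1.04 for pancreas. Limma-voom gave -1.08 for pancreas.

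Log2 fold changes that changed sign with a library left out ranged from -5.98 to 7.52 for Acta1, -3.48 to 7.23 for Ckm, -0.45 to 1.39 for Clec4f, -2.63 to 1.97 for Gpc3 and -8.36 to 3.47 for Igf2. They ranged from -0.09 to 0.23 for Nfic, -1.03 to 2.89 for S100a8 and -0.55 to 2.90 for S100a9. Gpc3 was 0.06 with limma-voom and 0.09 on log2(FPKM + 0.1), against -2.06. The cause was not tested.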

Other observations

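The counts of further lists stand beside 9.84% above and 7.56% below without overlap over all tested genes. Periportal genes, which include Cps1, Gls2 and Hal of the amino acid lists, had 6 of 15 above (40.0%) and 1 below (6.67%). Their median was 0.86, or 0.49 without wild-type tumor 2. DNA replication and G1/S genes had 2 of 27 above (7.41%) and 4 below (14.8%), with a median of -0.35. Glycolysis and hypoxia genes had 3 of 24 tested members above (12.5%) and 2 below (8.33%), near these shares. Pdk1, a kinase that restrains pyruvate dehydrogenase, had 103 and 103 CPM in the KO-labelled tumors, against 52.7, 30.6 and 64.8 CPM in the wild-type tumors. Fatty acid synthesis genes had 2 of 17 above and 0 below, and Scd1, a stearoyl desaturase, had 6482 and 6494 CPM in the KO-labelled tumors, against 5674, 1945 and 3337 CPM in the wild-type tumors. NRF2 targets had 3 of 26 above and 1 below, and Gsta4, a glutathione transferase of a family with close relatives, had 92.2 and 84.3 CPM in the KO-labelled tumors, against 64.2, 48.7 and 49.5 CPM in the wild-type tumors. For each of these 3 genes both KO-labelled values were above all wild-type values, as the rule that named them required. Plasma proteins had 2 of 26 above and 2 below, acute phase proteins 1 of 15 above, p53 targets 2 of 22 above and antigen presentation genes 3 of 21 above. Immediate early genes had 1 of 19 above, lymphocyte genes 2 of 18 above and 1 below, erythroid genes 0 of 8 above and 1 below, and adipose and mesothelium genes 0 of 11 in either direction. Male-biased liver genes had 1 of 18 above and 1 below, and female-biased ones 1 of 22 above. As log2(CPM + 0.5) minus the mean of the gene, the female-biased list averaged -2.18 in wild-type tumor 2, against 0.35 to 0.99 in the other libraries. Its summed CPM was highest there, at 8655, and the male-biased list was also lowest there, at -0.36. The part of sex in the values of wild-type tumor 2 was not tested.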
